A study of Mus musculus with 8 samples.

Results

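Igf1, Fgf1, Jag2, Pdgfra, Notch4 and Smad7 are growth factor, receptor and signalling inhibitor genes, and their transcripts were followed here in cultured cortical astrocytes that lack connexin43. These 6 genes were taken from a list of symbols, out of 5822 single gene symbols on the array, of which 2900 could be tested. They were listed because they stood out in, or were named beside, the comparison of astrocytes lacking connexin43 with wild-type astrocytes in an earlier pass over these same arrays. Their differences between genotypes are therefore given as a description, with no p-value. The SEs and 95% intervals beside them come from limma, which draws each gene's variance toward that of all genes tested. For Pdgfra and Fgf1, with the largest SDs of the 6 genes, they are narrower than those SDs alone would give. The SDs and array values show a gene's own spread, and the intervals are not read against 0.

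The cells came from newborn C57BL/6j mice that lacked connexin43 (Cx43 KO, 4 arrays) or were wild type (WT, 4 arrays). Connexin43 forms most of the gap junctions that couple astrocytes. Each 2-colour array set RNA of these cultures against a pool of RNA from adult mouse organs, among them liver, lung, heart, kidney, spleen and brain, and the arrays of each genotype are numbered 1 to 4, a number that is also the lot batch. Values below are log2 ratios, astrocyte signal divided by pool signal, from which the array's own median was subtracted; that the logarithm has base 2 is assumed. A value of 0 is thus the median ratio of that array, and an exact 0 in the deposited table was read as no ratio. Nothing in the labels tells whether arrays of a genotype stand for separate cultures or animals, so errors and p-values reflect array-to-array spread that could be technical. How the connexin43 gene was disrupted is not given in the sources used here, and the title of Cx43 KO 3 reads only Cx43.

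Insulin-like growth factor 1, fibroblast growth factor 1 and the Notch ligand jagged 2 act from outside the cell. Insulin-like growth factor 1 signals through a receptor tyrosine kinase and supports the growth and survival of neural cells, and fibroblast growth factor 1 signals through fibroblast growth factor receptors, lacks a classical secretion signal and is made by astrocytes and neurons. Pdgfra encodes the alpha receptor of platelet-derived growth factor, which in brain tissue marks oligodendrocyte precursors and also fibroblasts of the meninges and vessels. Notch4 encodes a Notch receptor known mainly from endothelium, and Smad7 encodes an intracellular inhibitor of transforming growth factor beta receptors that is itself induced by that pathway.

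The arrays carried a ratio for 3506 to 5514 of 9568 features. WT 2, WT 3 and Cx43 KO 2 had the fewest, with 3506, 3584 and 3798. Gja1, the gene of connexin43, was named for 0 features in the annotation used, so the genotype could not be checked on its transcript. The dyes are not given, and the direction of the ratio was taken from markers. The mean of 3 astrocyte markers with 8 values (Fabp7, Aldoc and Ttyh1) lay at 0.46 to 2.02 in Cx43 KO and 1.86 to 2.20 in WT. Averaged over the genotypes Fabp7 lay at 4.09 and Ttyh1 at 1.06. Aldoc lay at only 0.11, from -1.07 on Cx43 KO 4 to 0.88 on WT 4. Slc1a2, an astrocyte glutamate transporter gene, had no ratio on any array. The mean of 3 lung and stomach genes (Sftpc, Sftpb and Gkn2) lay at -4.53 to -3.82 in Cx43 KO and -4.59 to -3.81 in WT. Cx43 KO 4 stood apart, with the lowest astrocyte marker mean, 0.46, and the highest mean of 7 microglia and macrophage markers, 2.51, against 0.05 to 1.22 on the other Cx43 KO arrays and 0.70 to 1.38 on the WT arrays. Of those markers Itgam, Cd68, Rac2, Cd53 and Adgre1 were each highest of all arrays on Cx43 KO 4. Tyrobp, at 1.06 on Cx43 KO 4, was below WT 2 and WT 3. Lgmn, at 0.68 there, was lowest within Cx43 KO. Among the microglia markers Ptprc, Fcer1g, Ctss and Mpeg1 had no ratio on any array. In cultures of mixed cells, fewer cells of a type and less RNA per cell cannot be told apart.

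The 6 genes had 12 single-symbol features on the array, 3 each for Igf1 and Pdgfra, 2 each for Smad7 and Jag2, and 1 each for Fgf1 and Notch4. Of these, 7 carried a ratio on at least 6 arrays and 5 had no ratio on any array. Igf1 alone had more than 1 feature with a ratio, features 3334 and 8372 of the array. The gene average of each of the other 5 members was therefore the value of a single feature on every array, feature 8155 for Pdgfra, 7426 for Smad7, 734 for Fgf1, 8267 for Jag2 and 6935 for Notch4. The other 2 features of Pdgfra, 1 of Smad7, 1 of Jag2 and the remaining 1 of Igf1 were the features at exact 0 throughout. Of the 56 values possible for the 7 features, 7 were missing. WT 3 lacked 3 of them (Igf1 feature 8372, Pdgfra and Fgf1), Cx43 KO 2 lacked 2 (Pdgfra and Notch4), WT 2 lacked 1 (Notch4) and Cx43 KO 4 lacked 1 (Igf1 feature 8372). Apart from Cx43 KO 4, these are the arrays with the fewest ratios overall.

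Igf1, Pdgfra and Notch4 were the members with a lower mean in Cx43 KO, and the stretches around their annotated starts are shown because these genes share that direction. They are the RefSeq sequences of assembly GRCm38.p6, from 250 bases before to 50 bases after the start, on the plus strand. Igf1 is at chr10:87860861-87861160, Pdgfra at chr5:75152001-75152300 and Notch4 at chr17:34564045-34564344. Capitals mark CAGAC, the core of the element bound by Smad proteins, and TGGGAA, the core bound by the nuclear partner of Notch, on either strand; these letter strings do not overlap each other here.
Igf1: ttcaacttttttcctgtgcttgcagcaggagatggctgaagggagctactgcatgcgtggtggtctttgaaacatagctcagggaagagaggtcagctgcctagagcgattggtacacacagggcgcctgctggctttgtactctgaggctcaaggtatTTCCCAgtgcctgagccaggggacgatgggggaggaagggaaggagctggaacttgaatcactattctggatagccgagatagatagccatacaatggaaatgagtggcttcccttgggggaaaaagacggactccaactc
Pdgfra: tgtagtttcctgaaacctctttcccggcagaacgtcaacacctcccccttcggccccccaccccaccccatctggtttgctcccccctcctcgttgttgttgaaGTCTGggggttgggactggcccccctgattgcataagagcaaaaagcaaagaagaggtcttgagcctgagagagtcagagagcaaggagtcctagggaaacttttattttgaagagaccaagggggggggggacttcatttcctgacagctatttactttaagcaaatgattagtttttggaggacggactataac
Notch4: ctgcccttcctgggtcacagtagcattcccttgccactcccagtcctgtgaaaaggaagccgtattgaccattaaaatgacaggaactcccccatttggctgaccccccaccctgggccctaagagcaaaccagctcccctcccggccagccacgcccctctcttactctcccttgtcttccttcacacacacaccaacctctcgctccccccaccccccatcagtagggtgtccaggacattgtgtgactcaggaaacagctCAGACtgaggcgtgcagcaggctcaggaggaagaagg
CAGAC or its complement GTCTG occurred once in the Pdgfra and once in the Notch4 stretch and TGGGAA or TTCCCA once in that of Igf1. Of 32851 RefSeq stretches of the same length, 49.6% held the first string and 25.6% the second. The arrays measured transcripts and not binding, and a match is a description of the letters only.

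Igf1 transcripts lay lower in Cx43 KO than in WT on all arrays, with a mean of -0.24 ± 0.36 (SD, n = 4) in Cx43 KO and 0.52 ± 0.15 (SD, n = 4) in WT. The gene averages were -0.44, -0.25, 0.26 and -0.54 on Cx43 KO 1 to 4, against 0.41, 0.51, 0.73 and 0.42 on WT 1 to 4. The groups did not overlap, and the nearest values, 0.26 on Cx43 KO 3 and 0.41 on WT 1, were 0.15 apart. The Cx43 KO minus WT difference was -0.76 (SE 0.20, 95% interval -1.21 to -0.31, limma), 1.69-fold lower in Cx43 KO. Igf1 and Notch4 were the 2 of 6 members without overlap, both lower in Cx43 KO. Over all 3505 genes and unnamed features tested, the groups did not overlap in 5.22%, with Cx43 KO lower in 2.80% and higher in 2.43%. Nothing is read from the members' count against these shares, since the members were chosen on this contrast. Within lot batches 1 to 4 the Igf1 difference was -0.85, -0.76, -0.47 and -0.96, so each lot batch gave a lower value in Cx43 KO. The sizes in lot batches 3 and 4 compare unlike features, since WT 3 and Cx43 KO 4 had feature 3334 alone. Feature 3334 lay at -0.46 on Cx43 KO 3 against 0.73 on WT 3. It lay at -0.54 on Cx43 KO 4 against -0.09 on WT 4.

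The features of Igf1 did not read the same ratio. Feature 3334 lay at -0.96, -0.54, -0.46 and -0.54 on Cx43 KO 1 to 4, against 0.10, 0.34, 0.73 and -0.09 on WT 1 to 4. All Cx43 KO values of feature 3334 were below all WT values, with a mean difference of -0.89. Feature 8372 lay at 0.09, 0.04 and 0.98 on Cx43 KO 1 to 3, against 0.71, 0.69 and 0.93 on WT 1, WT 2 and WT 4. These groups overlapped, since Cx43 KO 3 had the highest value of all, and the mean difference was -0.41. On the 6 arrays with both, feature 8372 exceeded feature 3334 by 0.35 to 1.43, a mean of 0.84 ± 0.40 (SD, n = 6). On those 6 arrays alone the difference was -0.77 for feature 3334 and -0.41 for feature 8372. Each genotype had 1 array with feature 3334 alone (Cx43 KO 4 and WT 3), so the offset between the features entered both group means in the same proportion. With the features first put on 1 level the Igf1 difference was -0.76, the main value, which that same proportion fixed in advance. Over the 6 arrays with both features it was -0.59. Both settings were chosen after seeing the data.

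**Figure D1:**
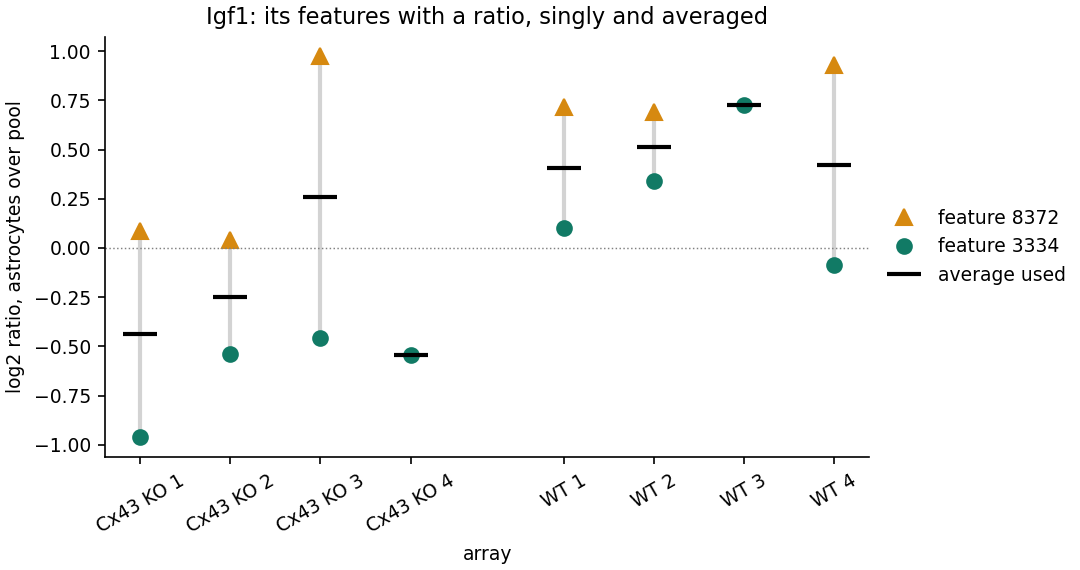
Igf1 log2 ratio (astrocytes over pool, vertical axis) on each array (horizontal axis) for features 8372 (triangles) and 3334 (circles), with the average used as a black line and grey lines joining the features of 1 array. Feature 8372 lies 0.35 to 1.43 above feature 3334 on each of the 6 arrays with both, and Cx43 KO 4 and WT 3 rest on feature 3334 alone.

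Fgf1 lay higher in Cx43 KO on average, at 0.89 ± 0.63 (SD, n = 4), against -0.51 ± 0.87 (SD, n = 3) in WT. Its values were 1.04, 1.38, 1.17 and -0.04 on Cx43 KO 1 to 4, against -1.51 on WT 1, -0.0043 on WT 2 and -0.0027 on WT 4. Cx43 KO 1 to 3 lay above every WT array, while Cx43 KO 4 lay just below WT 2 and WT 4, so the groups overlapped. The difference was 1.39 (SE 0.44, 95% interval 0.40 to 2.39), or 2.63-fold, and WT 3 did not enter it. WT 1 weighed on this value, since without it the difference was 0.89.

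Jag2 differed least between genotypes. It lay at 1.07, 0.85, 1.32 and 1.06 on Cx43 KO 1 to 4, against 0.69, 0.83, 0.56 and 1.06 on WT 1 to 4. The groups overlapped, although 14 of the 16 pairings of a Cx43 KO with a WT array had the higher value in Cx43 KO. The mean was 1.07 ± 0.19 in Cx43 KO and 0.78 ± 0.21 in WT (SD, n = 4 each), a difference of 0.29 (SE 0.18, 95% interval -0.11 to 0.69). It was 0.16 with quantile and 0.15 with scale normalization.

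Pdgfra had the largest difference of the 6 genes and also the largest spread within a genotype. Its single feature with ratios lay at -1.69, -1.50 and 0.24 on Cx43 KO 1, 3 and 4, against 1.84, 0.05 and 1.96 on WT 1, 2 and 4. Cx43 KO 1 and 3 lay far below WT 1 and 4, but Cx43 KO 4 lay above WT 2, so the groups overlapped, although without centring they did not. The means were -0.99 ± 1.07 in Cx43 KO and 1.28 ± 1.07 in WT (SD, n = 3 each). The difference was -2.27 (SE 0.63, 95% interval -3.71 to -0.82), a 4.81-fold lower mean in Cx43 KO, and Cx43 KO 2 and WT 3 had no value. Both arrays were present only in lot batches 1 and 4, where the difference was -3.53 and -1.72.

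Markers of cells other than astrocytes also varied between these arrays. Of the 24 fibroblast, meningeal and mural markers listed, 8 were on the array and 5 had a value on every array (Col1a1, Col3a1, Col6a1, Col6a3 and Fn1). Their mean was -1.08, -0.76, 0.34 and 2.27 on Cx43 KO 1 to 4, against 1.94, 0.05, 0.64 and 0.80 on WT 1 to 4. It was lowest on Cx43 KO 1, where Pdgfra was lowest too, and near 0 on WT 2, where Pdgfra was lowest within WT. On Cx43 KO 4, where this mean was highest, Pdgfra lay at only 0.24. Fmod, Lum and Rgs5 of the same list lacked values on some arrays. Fmod had the higher mean in Cx43 KO, 3.64 (n = 4) against 3.05 in WT (n = 3). It was lowest on WT 1, at 2.64, where the mean of the 5 markers was highest within WT. Lum (n = 2 and 4) and Rgs5 (n = 3 and 2) had the lower mean in Cx43 KO. They lay at -1.87 and -3.94, against -0.17 and -3.90 in WT. The part of these markers in the Pdgfra difference was not tested. Of 17 oligodendrocyte lineage markers 3 were on the array, and Cnp alone had 8 values, at -1.53 to 0.13 in Cx43 KO and -0.42 to 0.18 in WT. Olig2 lay at 2.09 and 0.10 on Cx43 KO 3 and 4, against 1.90 and 2.63 on WT 1 and 4. Mbp had a mean of -5.56 in Cx43 KO (n = 2) and -5.31 in WT (n = 4). Olig2 and Mbp had too few values to be tested. The part of the oligodendrocyte lineage markers in the Pdgfra difference was not tested either.

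**Figure D2:**
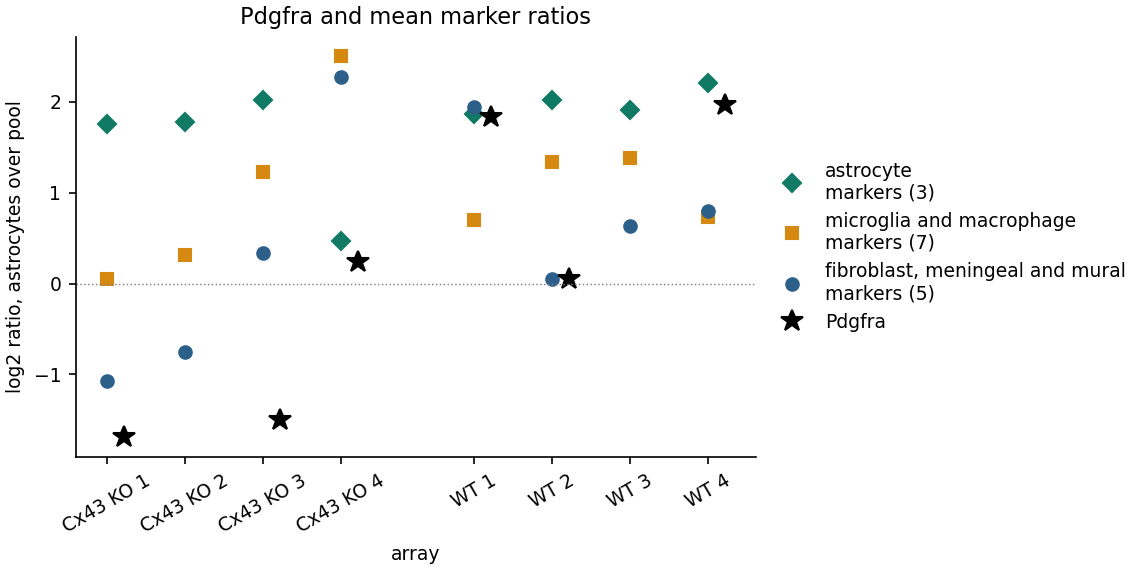
Log2 ratio (astrocytes over pool, vertical axis) of Pdgfra (stars) and the mean ratio of 3 astrocyte, 7 microglia and macrophage and 5 fibroblast, meningeal and mural markers on each array (horizontal axis). Cx43 KO 4 has the lowest astrocyte mean, 0.46, and the highest microglia mean, 2.51; Pdgfra has no value on Cx43 KO 2 and WT 3.

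Notch4 lay below the pool on every array that measured it and lower in Cx43 KO than in WT. It lay at -1.88, -2.24 and -1.49 on Cx43 KO 1, 3 and 4, against -0.89, -0.88 and -1.49 on WT 1, 3 and 4. The groups did not overlap, but Cx43 KO 4 and WT 4 were only 0.00057 apart, and with quantile or scale normalization they overlapped. The means were -1.87 ± 0.38 in Cx43 KO and -1.09 ± 0.35 in WT (SD, n = 3 each), a difference of -0.78 (SE 0.27, 95% interval -1.41 to -0.15). Cx43 KO 2 and WT 2 had no value. Of 18 endothelial markers 8 were on the array, 0 had a value on all arrays and 1, the endothelial cadherin gene Cdh5, was tested. Cdh5 lay at -0.93, -1.65 and -0.47 on Cx43 KO 2, 3 and 4, against 1.16, -1.20, -1.39 and -0.16 on WT 1 to 4. Its mean was lower in Cx43 KO, as that of Notch4 was, by -0.62 (SE 0.57, adjusted p = 0.826) with overlapping groups, and by -0.10 without WT 1. Icam2, with 3 Cx43 KO and 2 WT values, also had the lower mean in Cx43 KO, -2.42 against -2.21 in WT. Tie1, Flt1 and Eng, with 3 or 4 Cx43 KO and 2 WT values, had the higher mean in Cx43 KO, at -1.33, -0.96 and -2.32 against -1.59, -1.18 and -2.67 in WT. The part of these markers in the Notch4 difference was not tested.

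Smad7 lay well above the pool on every array and higher in Cx43 KO. It lay at 2.37, 2.22, 2.02 and 1.61 on Cx43 KO 1 to 4, against 0.68, 1.43, 1.07 and 1.62 on WT 1 to 4. The groups overlapped only through lot batch 4, where Cx43 KO 4 minus WT 4 was -0.0084, and in the other 15 of 16 pairings the Cx43 KO value was higher. The means were 2.05 ± 0.33 in Cx43 KO and 1.20 ± 0.41 in WT (SD, n = 4 each), a difference of 0.86 (SE 0.25, 95% interval 0.31 to 1.41), or 1.81-fold.

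**Figure D3:**
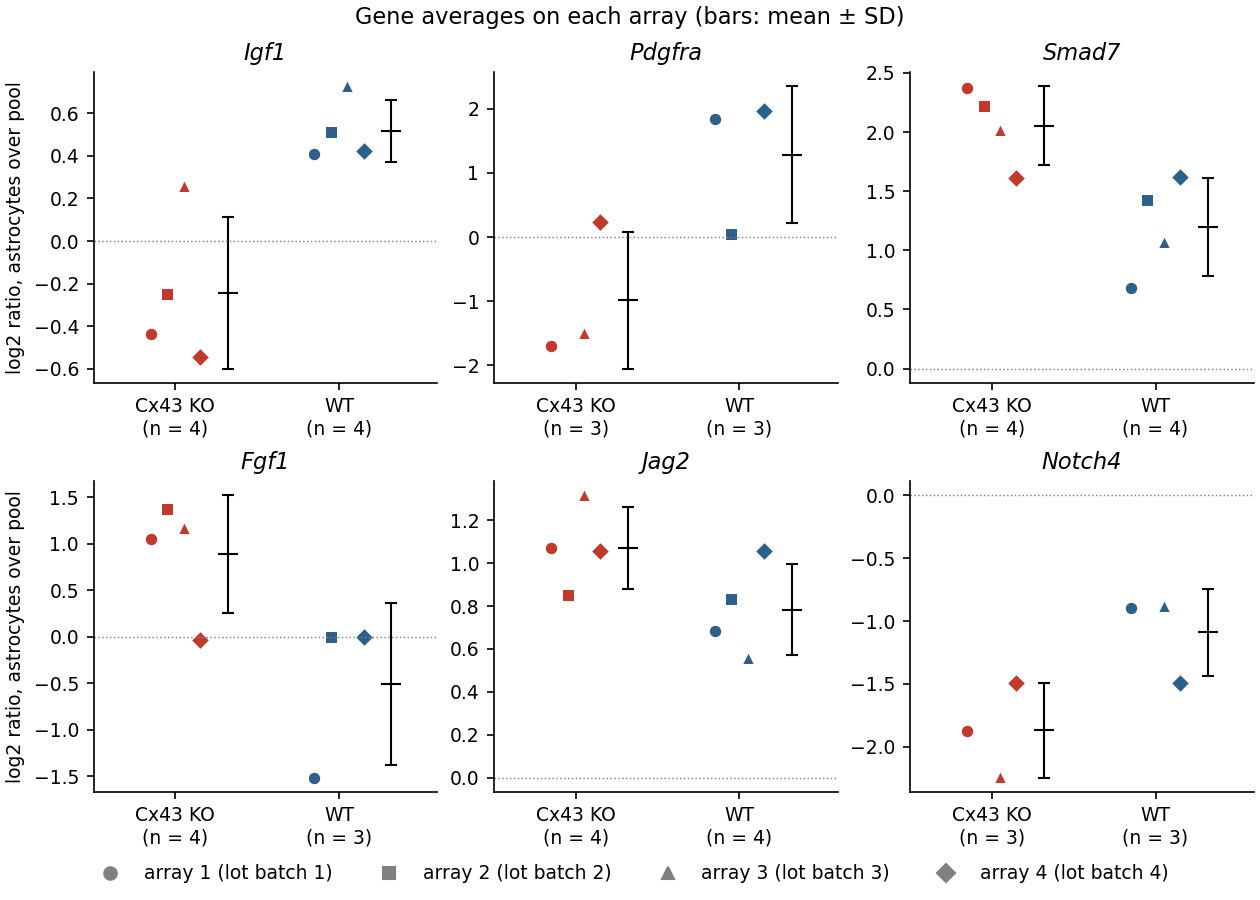
Log2 ratio (astrocytes over pool, vertical axes) of each gene on the arrays of Cx43 KO (red) and WT (blue); the symbol gives the array number, bars are mean ± SD and the scales differ between panels. Igf1 separates the genotypes by 0.15, Notch4 by 0.00057, and the other 4 genes overlap.

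The size of the difference varied between lot batches. In lot batch 4 the Cx43 KO minus WT difference was -0.0084 for Smad7, -0.03 for Fgf1, -0.0019 for Jag2 and -0.00057 for Notch4, while Igf1 and Pdgfra differed by -0.96 and -1.72. Thus 4 of 6 members lay within 0.05 of 0 in lot batch 4, where 7.82% of the 3479 genes and features with both values did. In lot batches 1, 2 and 3 this held for 0 of 6, 1 of 4 and 0 of 4 members. The limit of 0.05 is arbitrary and the members were chosen on this contrast, so nothing is read from these counts. Before centring the differences of these 4 members in lot batch 4 were -0.12 to -0.09. The Igf1 value of lot batch 4 set feature 3334 alone on Cx43 KO 4 against the average of its features on WT 4. Feature 3334 lay at -0.54 on Cx43 KO 4 and -0.09 on WT 4. Before centring its difference between these arrays was -0.54. In lot batch 1 the same 4 genes differed by 1.70 for Smad7, 2.56 for Fgf1, 0.38 for Jag2 and -0.98 for Notch4. Without Cx43 KO 4 the differences were -0.66 for Igf1, -2.88 for Pdgfra, 1.01 for Smad7, 1.70 for Fgf1, 0.30 for Jag2 and -0.97 for Notch4. Every direction stayed the same with Cx43 KO 4 left out. Without lot batch 3 the difference was -0.49 for Notch4 and 0.13 for Jag2, without lot batch 1 it was 0.84 for Fgf1, and without lot batch 4 it was -1.17 for Notch4.

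**Figure D4:**
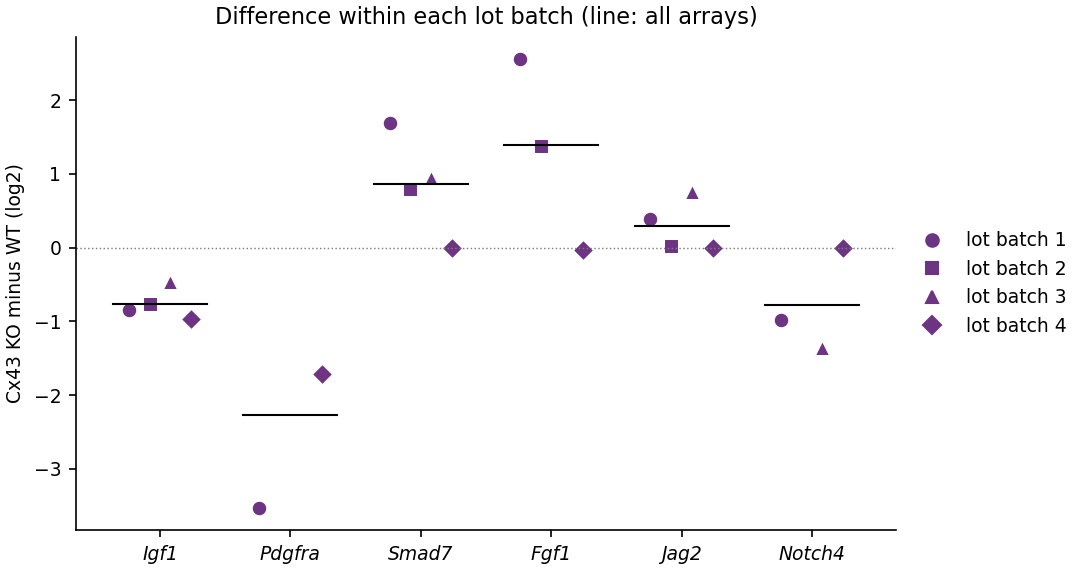
Cx43 KO minus WT difference (log2, vertical axis) of each gene within each lot batch (symbols) and over all arrays (black lines). In lot batch 4 (diamonds) Smad7, Fgf1, Jag2 and Notch4 lie within 0.05 of 0, while Igf1 and Pdgfra lie at -0.96 and -1.72.

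The ratio to the adult tissue pool did not enter the choice of the genes and was tested over all 8 arrays, as the mean of the genotype means against 0. Smad7 lay above the pool at 1.63 (SE 0.12, limma adjusted p = 1.31e-06), Jag2 above it at 0.93 (SE 0.09, adjusted p = 6.76e-06) and Notch4 below it at -1.48 (SE 0.14, adjusted p = 1.99e-05). Smad7 and Jag2 were above the pool on 8 of 8 arrays and Notch4 below it on 6 of 6. In the same test 34.7% of all genes and features lay above the pool and 33.7% below it, so that passing it was common. Because of the centring, above or below the pool here means above or below the array's median ratio. Without centring 1627 genes and features lay above and 858 below. Fgf1 at 0.19 (95% interval -0.31 to 0.69, adjusted p = 0.462) and Pdgfra at 0.15 (-0.57 to 0.87, adjusted p = 0.691) did not pass. Igf1 at 0.14 (-0.09 to 0.36, adjusted p = 0.25) did not pass as a gene average, but without centring it passed at 0.35 (limma adjusted p = 0.0153). Feature 8372 alone passed, at 0.57 (adjusted p = 0.00602), and feature 3334 did not, at -0.18 (adjusted p = 0.16) and at 0.04 without centring (adjusted p = 0.769). The pool is a single RNA mixture, so its own spread is not in these tests.

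Other genes of these pathways were counted from lists drawn up by pathway membership, leaving the members out. The array held 89 of them and 38 could be tested. Of these, 20 lay higher and 18 lower in Cx43 KO, with a median difference of 0.07 against 0.02 over all 3505 genes and features tested. With limma 0 of the 38 passed at an adjusted p of 0.05 and 0% of all tested did. At an unadjusted p of 0.05 it was 4 of the 38, against a share of 7.50% of all tested. Only Axl, a receptor tyrosine kinase for Gas6 named after its values were seen, had groups without overlap, 1 of the 38. Over all tested that share was 5.22%. Axl had 3 values in each genotype and lay higher in Cx43 KO by 0.45.

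Few partners of Igf1 were measured. Of 10 further genes of the insulin-like growth factor list on the array, 8 had no ratio on any array, among them Igf2r, Igfbp1 and Igfbp3, and Igfbp5 had 2 values per genotype. Only Igf2, the second insulin-like growth factor, was tested, at -0.23 ± 0.92 in Cx43 KO and 0.23 ± 0.50 in WT (SD, n = 4 each), a difference of -0.46 (SE 0.42, adjusted p = 0.826). It lay at 1.12 on Cx43 KO 4, against -0.88 to -0.43 on Cx43 KO 1 to 3. The Igf2 difference was -0.91 without Cx43 KO 4, -0.71 without WT 1, -0.30 without Cx43 KO 2 and -0.24 without Cx43 KO 1. In the platelet-derived growth factor list 4 of 7 genes on the array were tested, 3 higher and 1 lower, with a median of 0.34. That median was 0.08 without Cx43 KO 4, 0.17 without WT 3 and 0.18 with quantile normalization. The ligand Pdgfc lay at 1.41 ± 0.48 in Cx43 KO and 1.05 ± 0.79 in WT (SD, n = 4 each), a difference of 0.36 (SE 0.38, adjusted p = 0.837) that ran from 0.14 without Cx43 KO 4 to 0.72 without WT 1. Pdgfa had values on 3 Cx43 KO and 2 WT arrays and was not tested.

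The transforming growth factor beta and bone morphogenetic protein list had 13 tested genes besides Smad7, of 23 on the array, 9 higher and 4 lower, and a median difference of 0.19. The median was 0.09 without WT 2, 0.33 without WT 4 and 0.13 with quantile normalization. The receptor-activated Smads of the bone morphogenetic protein branch, Smad1 and Smad5, differed by 0.30 (SE 0.19, adjusted p = 0.76) and 0.18 (SE 0.17, adjusted p = 0.826). Smad3, which acts in the transforming growth factor beta branch, differed by 0.19 (SE 0.32, adjusted p = 0.919), from 0.03 without Cx43 KO 4 to 0.49 without Cx43 KO 2. Tgfbr3, the co-receptor betaglycan, had the largest difference of the list, 1.62 (SE 0.79, adjusted p = 0.687). Cx43 KO 3 lay at 4.49, against 0.14 to 1.38 on the other Cx43 KO arrays and -0.63 to 0.40 on the WT arrays, and without Cx43 KO 3 the difference was 0.67. Against the pool Smad1 lay at 1.05 (adjusted p = 5.02e-06) and Smad5 at 0.95 (adjusted p = 3.64e-06), both above it as Smad7 was.

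In the fibroblast growth factor list 3 genes besides Fgf1 were tested, 2 higher and 1 lower, with a median of 0.11 that turned to -0.15 with quantile normalization, and the receptor Fgfr1 had a value on 1 Cx43 KO array and 0 WT arrays. In the Notch list 10 genes besides Jag2 and Notch4 were tested, 3 higher and 7 lower, with a median of -0.05 that was 0.013 without WT 2 and 0.067 without WT 4. Hey1, a transcriptional repressor induced by Notch, lay at 1.81 ± 0.86 in Cx43 KO (SD, n = 4) and 2.02 ± 0.29 in WT (SD, n = 3), a difference of -0.21 (SE 0.42, adjusted p = 0.935). Its low value was 0.53 on Cx43 KO 4, against 2.11 to 2.34 on the other Cx43 KO arrays and 1.68 to 2.23 on the WT arrays, and without Cx43 KO 4 the difference turned to 0.22. Hes1 and the ligand Dll1 had no ratio on any array, and Notch1 had 1 WT value. The remaining list of other growth factors and receptors had 3 higher and 4 lower of 7 tested, with a median of -0.11 that ran from -0.51 without Cx43 KO 4 to 0.18 without WT 1.

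**Figure D5:**
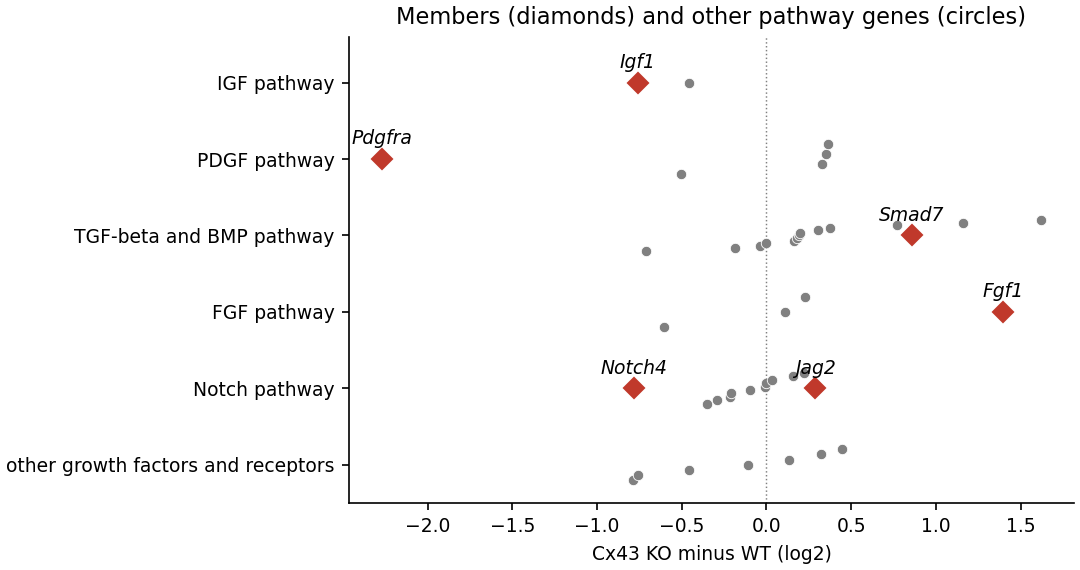
Cx43 KO minus WT difference (log2, horizontal axis) of the members (red diamonds) and of the other tested genes of each list (grey circles, rows). The members lie from -2.27 (Pdgfra) to 1.39 (Fgf1), and 0 genes shown passed the test at an adjusted p of 0.05.

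The likeness of array patterns was measured as the mean absolute difference between deviations from each gene's own mean, against the 2162 or 2163 other named genes with 8 values. The pattern of Igf1 was closest to those of Mcm7 (0.18), a subunit of the replicative helicase, Mdc1 (0.19) and Mef2c (0.20), over 8 arrays. For Smad7 these were Ivd (0.16), Gmfb (0.16) and Hdac4 (0.18), and for Jag2 Atg9a (0.09), the creatine transporter gene Slc6a8 (0.09) and Prmt7 (0.10), over 8 arrays. For Fgf1, over 7 arrays, they were Gpd2 (0.28), Smad7 (0.35) and Pcx (0.37). For Notch4, over 6 arrays, they were Fen1 (0.15), Socs2 (0.17) and Igsf3 (0.17). Pdgfra had no close match, its nearest over 6 arrays being Eya2 (0.67), the collagen VI gene Col6a3 (0.68) and Itih5 (0.74). The median over the genes compared was 0.46 for Igf1, 0.50 for Smad7, 0.30 for Jag2, 0.80 for Fgf1, 0.50 for Notch4 and 1.26 for Pdgfra. Smad7 was thus the second nearest pattern to Fgf1, a description of these 7 arrays that share the lowest Cx43 KO value on Cx43 KO 4 and the lowest WT value on WT 1.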

How the data were processed

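Per the labels, each array set astrocyte RNA against a common reference pool. The deposited values are signed log ratios per feature, read as log2; no source used here gives the base, dyes, scanner, background correction, normalization or build. The values give no depth, and the number of arrays limits the precision. Exact 0 (42.4% to 63.4% of features on an array) was read as missing and each array centred on its median, which lay between 0.09 and 0.32. Features with a single symbol in the platform annotation (7307) were averaged per gene within each array; the Entrez identifiers of 7256 were found in RefSeq's mouse gene list, which changed 0 symbols. Features with several symbols (318) or none (1943) were kept singly, unnamed. Genes and features with at least 3 values in each genotype, 3505 in all, were fitted with limma 3.58.1 (R 4.3.3), two-sided, with Benjamini-Hochberg adjustment. The fit gave the Cx43 KO minus WT difference and the mean level against 0. The code of the fit was run on simulated data with independent normal noise and no lot batch or array effect. That run checks whether differences put in are recovered, and not whether the model suits these arrays. Groups came from the titles. Members, lists and markers were chosen with earlier results of these data known. Partner genes were named by family, and like patterns by the 3 smallest distances. Per the labels, same-numbered arrays share a lot batch, which pairs them; within such pairs, deviations around each genotype's mean had r = -0.18, 0.19, -0.13 and -0.19 over 2596 genes for lot batches 1 to 4. Alternatives changed the centring, the block, weights, features, filters and arrays.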

Additional observations from a re-analysis of the deposited data

Results flagged for a closer look

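In groups of 4 arrays, values were checked for 1 array lying far from the other 3, by the gap to its nearest neighbour as a share of the group's range. Of 21 groups checked 3 were past the limit of 0.829, and chance gives about 1 in 20. Igf1 feature 3334 in Cx43 KO had a share of 0.831, from -0.96 on Cx43 KO 1 against -0.54 to -0.46 on the other Cx43 KO arrays. The mean of 3 astrocyte markers in Cx43 KO had a share of 0.830, from 0.46 on Cx43 KO 4 against 1.75 to 2.02. The oligodendrocyte lineage marker with 8 values, Cnp, had a share of 0.888 in Cx43 KO, from -1.53 on Cx43 KO 4 against -0.06 to 0.13.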

How the results depend on the processing

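The difference of each member kept its direction in all 135 settings that gave a value. Some of these settings cannot change the value. Examples are leaving out an array without a value for the gene, or choosing features where a single feature has ratios. The members were also chosen on this contrast, so the count is a description only. Within lot batch 4 alone Smad7, Fgf1 and Jag2 lay the other way, at -0.0084, -0.03 and -0.0019. Igf1, Pdgfra and Smad7 lay at -0.39, -0.57 and 0.43 with exact 0 kept as a ratio, where features at 0 enter the average. Over leaving out 1 array the differences ran from -0.93 to -0.66 for Igf1, -2.88 to -1.91 for Pdgfra, 0.68 to 1.01 for Smad7, 0.89 to 1.70 for Fgf1, 0.21 to 0.38 for Jag2 and -0.98 to -0.60 for Notch4, at 2 values per genotype where 3 were lacking (added after seeing the data). Over leaving out 1 lot batch they ran from -0.86 to -0.69 for Igf1, -2.88 to -1.64 for Pdgfra, 0.58 to 1.15 for Smad7, 0.84 to 1.95 for Fgf1, 0.13 to 0.39 for Jag2 and -1.17 to -0.49 for Notch4. Jag2 was at 0.16 with quantile and 0.15 with scale normalization and 0.14 with exact 0 kept. Blocking on lot batch (replicate block), the differences were -0.76, -2.62, 0.86, 1.30, 0.29 and -0.78 for Igf1, Pdgfra, Smad7, Fgf1, Jag2 and Notch4, and 196 genes and features lay below an unadjusted p of 0.05, against 263 without it; the adjusted count was 0 in both. With the block the levels of Smad7 and Jag2 still passed (adjusted p = 9.80e-05 and 0.000279). That fit gave no Notch4 level, since Notch4 has no value in lot batch 2; with the block and without lot batch 2, added after seeing the data, it was -1.48 (adjusted p = 0.00139).

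The level of Igf1 was 0.35 and passed without centring (adjusted p = 0.0153) and was 0.57 for feature 8372. It turned to -0.0037 with exact 0 kept and to -0.18 for feature 3334, the feature with a ratio on the most arrays and the only one with a ratio on all 8, which lay at 0.04 without centring (added after seeing the data). The level of Pdgfra turned to -0.0705 with the replicate block, -0.20 with array weights and -0.13 with exact 0 kept; the cause was not tested. Without centring 1627 genes and features lay above and 858 below the pool, against 1216 and 1181 with it. Leaving out 1 array gave 0 to 4 genes and features past the adjusted threshold and 140 to 384 at an unadjusted p of 0.05, 4 and 384 without Cx43 KO 4. Array weights raised the unadjusted count to 471, and without lot batches 1 to 4 it was 142, 161, 102 and 427, where fewer were tested. With exact 0 kept, 6125 of 8083 differed from the pool, 1148 above and 4977 below the pool, against 2397 of 3505. In that setting each array's median, which was above 0 on every array, was still subtracted. An exact 0 thus became a value below 0, so features at exact 0 throughout lay below the pool by construction. How many of the 4977 these were was not counted.

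The median of the fibroblast growth factor list turned to -0.15 with quantile normalization. Over leaving out 1 array the medians ran from -0.17 to 0.28 for that list, -0.16 to 0.067 for Notch and -0.51 to 0.18 for other growth factors, so these have no settled direction. They ran from 0.08 to 0.41 for the platelet-derived growth factor list and 0.09 to 0.33 for the transforming growth factor beta list. The insulin-like growth factor list held 1 tested gene, Igf2, so its range of -0.91 to -0.24 is that of a single gene. The Igf2 groups overlapped (limma adjusted p = 0.826 over all arrays).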
